A study of Mus musculus with 15 samples.

Results

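The cerebellum of YG8JR mice that had received a transplant of blood stem and progenitor cells was compared with that of untreated YG8JR mice, over 12 of the 15 libraries of bulk RNA sequencing. The transplanted group pooled 9 libraries, 5 from mice given edited cells and 4 from mice given mock-treated cells, and the untreated group held 3. YG8JR is a mouse model of Friedreich ataxia. Donor cells were Sca1+ hematopoietic stem and progenitor cells of YG8JR mice. Edited cells, named mPPL-001, had received Cas9 with paired guide RNAs by electroporation, and mock cells had received the guides but no Cas9. All 9 recipients were 2.5 to 3 months old when they were given 7 Gy of irradiation, and they were infused a day later, kept on antibiotics for 1 month and sampled 6 months after transplant. Untreated mice received no transplant. Irradiation, antibiotics and graft came together in every recipient, so their effects cannot be told apart here. The labels give neither the age of the untreated mice nor the sex of donors and recipients, and the share of recipient myeloid cells that came from the donor is not given in the sources used here.

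Microglia are the resident macrophages of the brain. They arise before birth and renew themselves, while the macrophages of the meninges, vessels and choroid plexus are in part replaced from marrow. Irradiation before a transplant lets cells of marrow origin settle in the brain, where they keep a transcript profile of their own, rich in Ms4a7, Lyz2 and MHC genes and poorer in Sall1, P2ry12 and Siglech. Pericentromeric major satellite DNA is a tandem repeat that is normally packed as heterochromatin, and some predicted mouse genes are annotated within such repeats.

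Only predicted genes of satellite-like sequence passed the threshold in the pooled comparison. edgeR's quasi-likelihood test with the labelled batch as covariate called 10 of 24196 genes higher after transplant at an adjusted p under 0.05 (0.0413% of genes tested) and 0 lower (0%). At an unadjusted p under 0.05 the same test counted 548 higher (2.26%) and 406 lower (1.68%), and DESeq2 called 20 higher and 9 lower. The 10 genes were Gm10801 and Gm10800 on chromosome 2, Gm21738 on chromosome 14, and Gm10715, Gm10717, Gm10718, Gm10719, Gm10721, Gm11168 and Gm17535 on chromosome 9. Their transcripts hold repeated words of the same sequence, shown here for 4 of them because this likeness limits what each gene's count can mean. Each line is 160 bases of the annotated transcript, 5′ to 3′, from GENCODE M21 on GRCm38. Capitals mark bases covered by a word of 31 bases that at least 5 of the 10 genes hold. The window with the most capitals was taken in each transcript, so the lines overstate the sharing over whole transcripts.
Gm10801: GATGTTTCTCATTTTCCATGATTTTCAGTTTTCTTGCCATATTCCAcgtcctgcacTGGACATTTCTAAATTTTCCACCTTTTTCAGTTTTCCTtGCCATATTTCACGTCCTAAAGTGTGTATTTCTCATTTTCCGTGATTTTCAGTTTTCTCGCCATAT
Gm10800: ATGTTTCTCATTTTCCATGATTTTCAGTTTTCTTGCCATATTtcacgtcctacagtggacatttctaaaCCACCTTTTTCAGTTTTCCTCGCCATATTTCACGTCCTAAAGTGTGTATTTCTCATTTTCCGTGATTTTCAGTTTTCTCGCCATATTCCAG
Gm21738: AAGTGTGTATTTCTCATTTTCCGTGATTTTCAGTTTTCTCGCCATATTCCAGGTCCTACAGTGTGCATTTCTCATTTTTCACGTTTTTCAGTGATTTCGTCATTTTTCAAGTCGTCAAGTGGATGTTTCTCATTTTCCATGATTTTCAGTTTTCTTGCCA
Gm10715: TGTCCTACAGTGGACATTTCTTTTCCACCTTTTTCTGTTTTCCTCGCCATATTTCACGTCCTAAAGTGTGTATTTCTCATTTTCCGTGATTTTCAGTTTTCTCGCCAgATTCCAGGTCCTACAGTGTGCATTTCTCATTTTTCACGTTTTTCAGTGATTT
Each transcript was also compared with itself at a shift, and only shifts near the length of a major satellite unit were tried. Among those, the 10 genes were most alike to themselves at 225 (Gm10800) to 237 (Gm11168) bases. Closeness to that length was thus set by the search, and shorter repeats were not looked for. The window of Gm21738 is also found, base for base, in Gm10718. Depending on the gene, 36.7% (Gm10801) to 93.9% (Gm17535) of all words of 31 bases in its transcript occurred in another of the 10 genes. Reads from such copies can be split among them or assigned to several, and how the counting treated them is not given in the sources used here, so the family is best read as a sum.

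Summed over the 10 genes, the level was 1757, 424, 1107, 1122 and 404.7 CPM (counts scaled to library size with TMM factors) in edited replicates 1 to 5 and 738.3, 1039, 1040 and 869.1 CPM in mock replicates 1 to 4. In untreated replicates 1 to 3 it was 47.09, 58.91 and 86.08 CPM. The groups did not overlap, and the lowest transplanted library stood well above the highest untreated library. The 10 genes were chosen because they were called higher in these same libraries, which favours such a gap. The 3 wild-type libraries, which are not in the comparison, held 11.62 to 67.37 CPM. The mean was 944.7 ± 410.3 CPM (SD, n = 9) against 64.03 ± 19.99 CPM (SD, n = 3). Batch B libraries were the lowest within the edited, the mock and the untreated group, and also among the wild-type libraries.

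Gm10800 carried most of the sum. Its level ran from 309.6 through a median of 826.2 to 1437 CPM after transplant, against 37.21, 48.3 and 71.17 CPM in the untreated libraries. The log2 fold change was 3.91 (SE 0.33, edgeR adjusted p = 0.00012). Gm10801 had the smallest p of all genes, at 25.04, 42.98 and 74.67 CPM (lowest, median, highest) against 2.346, 3.055 and 3.973 CPM, a log2 fold change of 3.79 (SE 0.21, edgeR adjusted p = 4.77e-07). It was the only gene of the 10 that was called in each of the 29 alternative fits, and its log2 fold change was 3.88 within batch A and 3.61 within batch B. Gm21738 ran from 33.13 to 138.6 CPM against 3.284, 3.833 and 5.556 CPM (log2 fold change 4.21, SE 0.32). Every transplanted library lay above every untreated one in these 3 genes, which their being called in the same libraries favours.

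The other 7 genes were of lower level and rose by log2 fold changes of 3.37 (Gm10721, edgeR adjusted p = 0.0382) to 4.91 (Gm10715, edgeR adjusted p = 0.00377). Gm10715 rested on 6 counts in the untreated group and Gm17535 on 8. A search of the annotation for transcripts sharing at least 10% of their 31-base words with the called genes found 3 more members. Gm10720 and Gm10722 were tested and not called, with log2 fold changes of 3.78 (edgeR adjusted p = 0.18) and 3.94 (edgeR adjusted p = 0.221), and Gm26870 is not analysed here. In 2 of the 12 leave-one-out fits the count of calls fell from 10 to 6, without untreated replicate 2 and without untreated replicate 3. Within batch B, where 1 untreated library stands against 4 transplanted ones, 2 genes were called, Gm10801 and Lyz2.

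**Figure D1:**
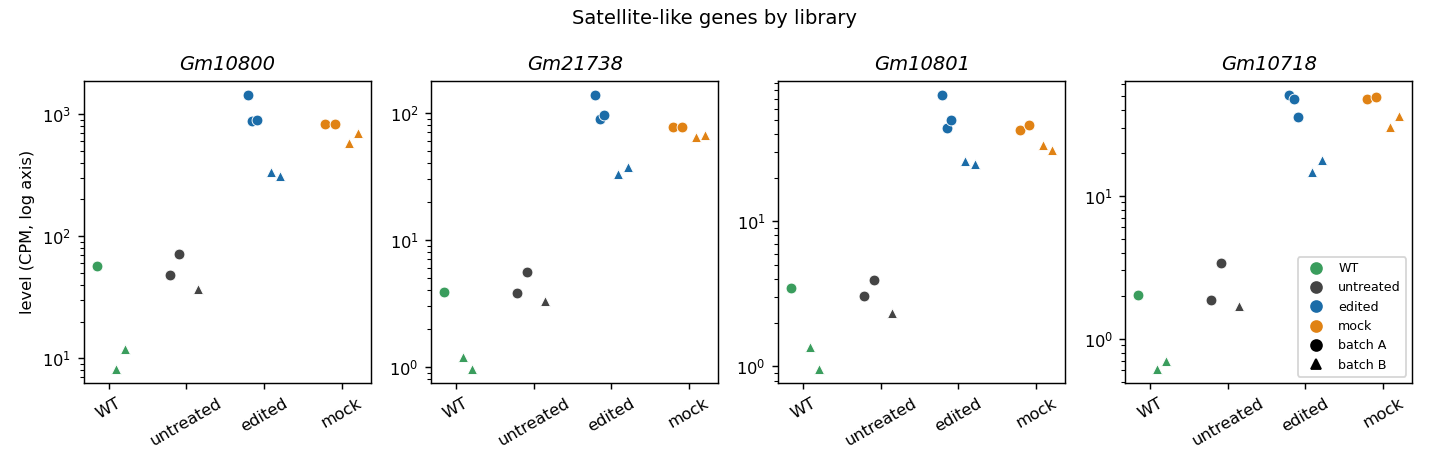
Level of 4 satellite-like genes in each library (CPM, log axis), by group, with circles for batch A and triangles for batch B; WT is wild type. In each panel all 9 transplanted libraries lie above the 3 untreated ones, as for Gm10800 at 309.6 to 1437 CPM against 37.21 to 71.17 CPM.

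Genes of repeat chromatin and of the sensing of foreign RNA and DNA were not called. Of 19 tested genes of chromatin at repeats, 0 were called by edgeR and 1 had an unadjusted p under 0.05, against 2.26% higher over all genes tested. It was Uhrf1, which guides maintenance of DNA methylation, at a log2 fold change of 0.79 (SE 0.37). DESeq2 called 0 of them. The list's median was 0.06, against 0.04 over all genes tested, of which 57.7% were positive. For 15 sensors of foreign and repeat RNA the median was -0.01. Tmem173, which encodes the STING adaptor, lay below the untreated libraries of the same batch in every transplanted library, at a log2 fold change of -0.38 (SE 0.23), and was not called.

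The 10 properly named genes with the smallest p on the higher side, none of them called by edgeR, were Mrc1, Cybb, Lyz2, Ms4a7, Siglec1, Ms4a6b, Tlr8, Stab1, Fbn1 and Ifi207. Mrc1, Lyz2, Ms4a7 and Ms4a6b are on the list of macrophages of marrow origin and of the brain's borders, and Cybb on that of disease-associated microglia. The 10 were picked by p in these same libraries, which favours a steady sign and separated groups. All 10 had a positive log2 fold change in every alternative fit. In 6 of them (Mrc1, Cybb, Lyz2, Ms4a7, Siglec1 and Ms4a6b) each transplanted library lay above each untreated library of its batch. Over all genes tested 183 did so (0.756%) and 119 lay below (0.492%). Those 2 counts depend on the scaling: they were 139 and 202 with TMM factors taken over all 15 libraries and 163 and 150 with RLE factors.

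Mrc1, the mannose receptor of border macrophages, stood at 9.147, 11.4, 10.39, 9.212 and 7.216 CPM in the transplanted libraries of batch A against 5.36 and 4.952 CPM. In batch B it stood at 12.78, 14.85, 16.46 and 13.58 CPM against 8.123 CPM. Batch B was higher in both groups, so the pooled ranges overlap while those within a batch do not. The log2 fold change was 0.86 (SE 0.15, edgeR adjusted p = 0.076), and Mrc1 passed the threshold with DESeq2, with voom sample weights and without mock replicate 3.

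Lyz2, the lysozyme of myeloid cells, ran from 21.54 through 43.21 to 72.62 CPM after transplant against 17.39, 16.78 and 13.93 CPM. The groups did not overlap, and the 4 highest values were those of batch B. The log2 fold change was 1.24 (SE 0.23, edgeR adjusted p = 0.18), 0.94 within batch A and 1.87 within batch B. Cybb, the oxidase subunit of phagocytes, ran from 3.56 through 5.629 to 10.15 CPM against 2.668, 2.68 and 2.159 CPM. Its log2 fold change was 1.17 (SE 0.22, edgeR adjusted p = 0.18), and the groups again did not overlap.

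Ms4a7, a membrane protein typical of macrophages of marrow origin in the brain, ran from 1.017 through 1.915 to 2.624 CPM against 0.3226, 0.4824 and 0.4318 CPM. The log2 fold change was 1.98 (SE 0.39, edgeR adjusted p = 0.221), with all transplanted libraries above all untreated ones. Siglec1, the sialoadhesin of tissue macrophages, differed by 1.23 (SE 0.28) with no overlap, at 2.405 to 5.298 CPM against 1.233 to 1.554 CPM. Clec12a, a myeloid lectin receptor at low level, ran from 0.3311 to 0.9646 CPM against 0.08797, 0.0536 and 0.3167 CPM. DESeq2 called Mrc1, Cybb, Lyz2, Ms4a7, Siglec1 and Ms4a6b, together with Cd5l and Samd3 and 12 genes of the satellite-like family.

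Cd5l, a secreted protein of tissue macrophages in liver and spleen, held 0 counts in the 3 untreated and the 3 wild-type libraries. The 9 transplanted libraries held 112 counts in all, 1 to 27 in each. Its pooled level was 14.3-fold that of a floor of 3 counts set over the untreated group, and the edgeR adjusted p was 0.18. A search for genes at 0 counts in every untreated and above 0 in every transplanted library returned Cd5l. Those traits therefore follow from the choice. Samd3, a gene of low level, ran from 0.1906 to 1.496 CPM against 0.05865, 0.1072 and 0.02879 CPM and was also not called by edgeR.

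The list of border macrophages and macrophages of marrow origin had 23 tested genes, 15 of them positive, with a median of 0.20. By edgeR 0 were called, and DESeq2 called 4 (Mrc1, Lyz2, Ms4a7 and Ms4a6b). On the higher side 8 had an unadjusted p under 0.05, against 2.26% of all genes tested. In both batches 6 lay above the untreated libraries, against 0.756% of all genes, a share that depends on the scaling. Members did not move as a block. Cd163, the haemoglobin scavenger receptor of perivascular macrophages, stood at 1.417 to 3.353 CPM against 3.724, 3.029 and 5.959 CPM, a log2 fold change of -0.71 (SE 0.24). Ccr2, the chemokine receptor of blood monocytes, differed by -0.54 (SE 0.49), and Lyve1 by 0.20 (SE 0.37). The summed level of the list ran from 328.1 through 438.4 to 530.1 CPM against 358.4 to 371.5 CPM, so the groups overlapped. Without mock replicate 2 the list's median was 0.01.

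Genes of resident microglia leaned the other way. Of 25 genes of homeostatic microglia 23 were negative, with a median log2 fold change of -0.34. By edgeR 0 were called, and DESeq2 called 3 (Csf1r, Cx3cr1 and Siglech). On the lower side 12 had an unadjusted p under 0.05, against 1.68% of all genes tested. In both batches 8 lay below the untreated libraries, against 0.492% of all genes, a share that depends on the scaling. The list was chosen with earlier results of these data known. The summed level of the list ran from 443.7 through 505.8 to 623.9 CPM after transplant and stood at 629.5, 718.1 and 669.8 CPM in the untreated libraries, so the groups did not overlap. The median stayed negative in all 29 alternatives, from -0.46 to -0.28. In RNA from whole tissue, fewer cells of a type and less RNA per cell cannot be told apart.

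Csf1r, the receptor for the survival factor of microglia and macrophages, stood at 41.14, 65.89, 42.45, 61.75 and 51.5 CPM in batch A after transplant against 94.31 and 95.49 CPM. In batch B it stood at 36.24, 45.18, 34.52 and 52.04 CPM against 69.85 CPM. Each transplanted library was below all 3 untreated ones. The log2 fold change was -0.81 (SE 0.15, edgeR adjusted p = 0.122), and Csf1r passed the threshold with DESeq2, with voom sample weights and without the low-count filter.

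Siglech, a lectin that separates microglia from other macrophages, ran from 1.674 through 4.619 to 7.531 CPM against 6.305, 11.23 and 10.13 CPM. The log2 fold change was -1.01 (SE 0.22, edgeR adjusted p = 0.443), and within each batch the groups did not overlap. Cx3cr1, the fractalkine receptor, differed by -0.57 (SE 0.12, edgeR adjusted p = 0.285), at 16.23 to 36.82 CPM against 27.1, 50.57 and 45.78 CPM. P2ry12, the purinergic receptor of resting microglia, differed by -0.66 (SE 0.16), at 7.374 to 16.2 CPM against 14.49, 19.91 and 20.76 CPM. Sall1, a transcription factor of microglial identity that other cerebellar cells also express, differed by -0.50 (SE 0.16) and Gpr34 by -0.69 (SE 0.19). P2ry12, Sall1 and Gpr34 were not called by edgeR or DESeq2, and in each the transplanted libraries lay below the untreated ones of their batch.

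**Figure D2:**
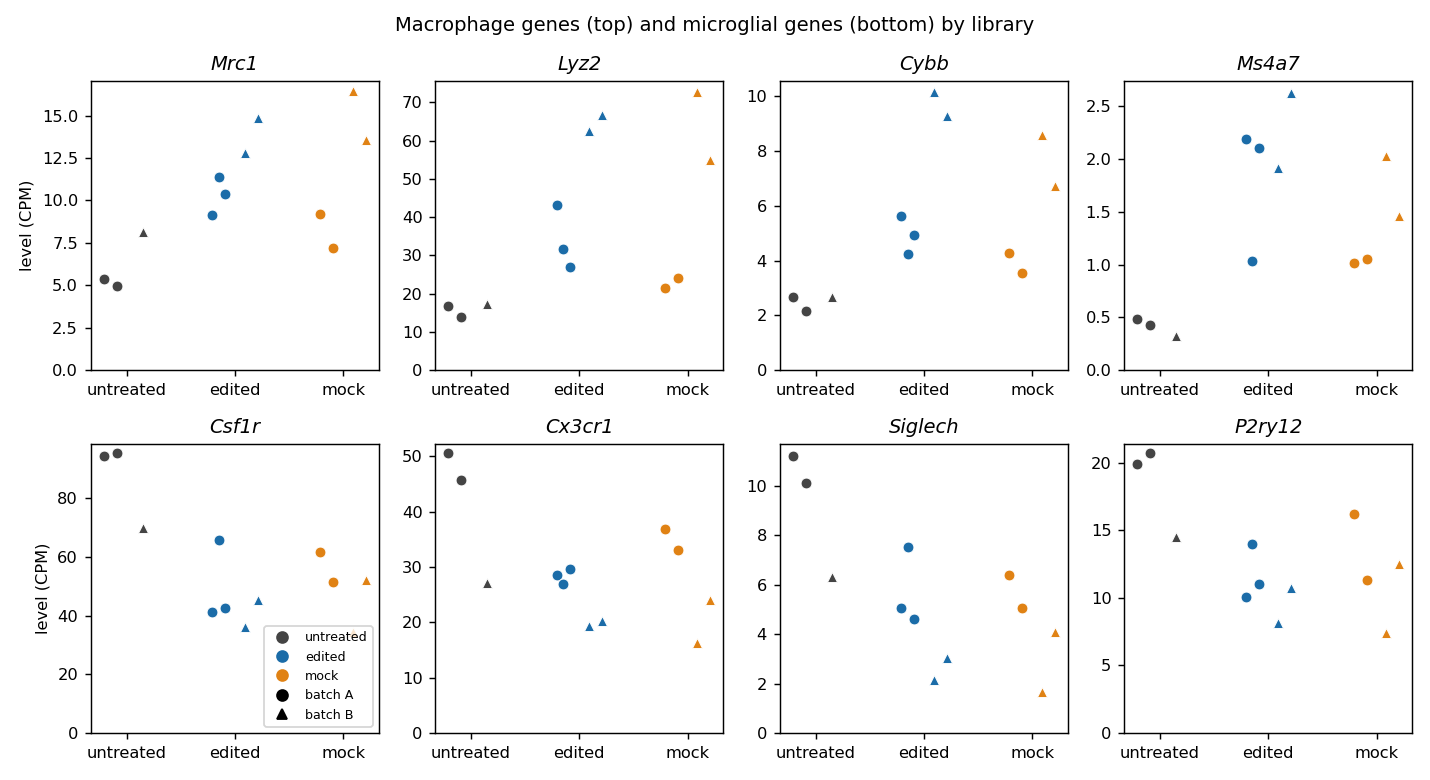
Level (CPM) of 4 macrophage genes (top) and 4 microglial genes (bottom) in each of the 12 libraries, with circles for batch A and triangles for batch B. Within each batch all transplanted libraries lie above the untreated ones in the top panels and below them in the bottom panels, as for Csf1r at 34.52 to 65.89 CPM against 69.85 to 95.49 CPM. The genes shown were picked by p in these same libraries, which favours such separation.

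Not all microglial genes followed. Fcrls, a marker of resident microglia, had a log2 fold change of 0.34 (SE 0.12), C1qa one of -0.16 (SE 0.17) and Trem2, the lipid receptor of activated microglia, one of -0.32 (SE 0.18). Ptprc, the CD45 antigen of all leukocytes, differed by 0.01 (SE 0.22), at 5.327 to 11.3 CPM against 7.214, 6.754 and 8.32 CPM. The 25 genes of disease-associated microglia had a median of -0.08. Cybb was their only member above the untreated libraries in both batches, against 0.756% of all genes tested. Apoe differed by 0.16 (SE 0.11) and Clec7a by -0.36 (SE 0.31).

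Genes of MHC class II, which presents antigen on macrophages and other cells, were not called by edgeR or DESeq2. H2-Aa, an alpha chain, stood at 2.815, 2.484, 3.78, 2.717 and 6.636 CPM in edited replicates 1 to 5 and 6.44, 4.956, 6.189 and 14.57 CPM in mock replicates 1 to 4, against 2.463, 2.546 and 1.67 CPM. Mock replicate 4 was the highest and edited replicate 2 lay within the untreated range. The log2 fold change was 1.18 (SE 0.45, edgeR adjusted p = 0.948). Cd74, the invariant chain, differed by 1.20 (SE 0.41) and H2-Ab1 by 0.94 (SE 0.37), both highest in mock replicate 4 at 31.52 and 13.14 CPM. H2-Eb2, a gene of low level, differed by -1.82 (SE 0.66), and Ciita, the transactivator of the class, by -0.06 (SE 0.31). Of 11 tested genes 7 were positive, with a median of 0.13 that was 0 without edited replicate 3. At an unadjusted p under 0.05, 4 were higher (H2-Aa, Cd74, H2-Ab1 and H2-Eb1) and 1 lower (H2-Eb2). Over all genes tested those shares were 2.26% and 1.68%. In both batches 1 gene lay above the untreated libraries (H2-Aa) and 2 below (H2-Eb2 and Ifi30), against 0.756% and 0.492% of all genes tested.

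Interferon, complement and cytokine lists had 0 calls by edgeR and by DESeq2. Of 22 genes inducible by interferon gamma 17 were positive (median 0.26), and their range over alternatives was 0.03 to 0.36. The type I interferon list had a median of 0.14 over 39 genes, 0.32 within batch A and -0.16 within batch B. Complement genes had a median of -0.08 over 17 genes, and C4b, at 130.4 to 276.8 CPM against 189.3, 166.9 and 235.6 CPM, differed by -0.03 (SE 0.20). At an unadjusted p under 0.05, 2 interferon gamma genes (Tgtp1 higher, Irf8 lower), 0 type I interferon genes and 1 complement gene (C2, higher) were counted. Over all genes tested the shares were 2.26% higher and 1.68% lower.

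Lymphocytes and granulocytes contributed few counts. Of 25 genes of T and NK cells 12 had enough counts to be tested, of 16 B and plasma cell genes 8, and of 18 neutrophil and mast cell genes 6. Their medians were 0.00, 0.03 and -0.12, with 0 calls by edgeR and DESeq2. Slamf7, a receptor of activated lymphocytes and macrophages, was higher than untreated in both batches, at 0.1271 to 1.063 CPM against 0.1759, 0.0268 and 0 CPM, a log2 fold change of 2.85 (SE 0.72, edgeR adjusted p = 0.911). Pax5, a B cell factor that brainstem neurons also express, ran from 0.09661 to 33.83 CPM against 0.7038, 1.849 and 1.986 CPM.

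Genes of the response to radiation gave no call at 6 months. Of 29 p53 targets 19 were positive, the median was 0.07, and 0 were called by edgeR or DESeq2. Eda2r, a death receptor of the TNF family, ran from 1.947 through 2.608 to 4.771 CPM against 1.114, 1.152 and 2.015 CPM, a log2 fold change of 1.06 (SE 0.35, unadjusted p = 0.00813, edgeR adjusted p = 0.948). Only edited replicate 3 lay below the highest untreated library. Tnfrsf10b differed by 0.75 (SE 0.31) and Trp53inp1 by 0.32 (SE 0.12). Cdkn1a, the cell cycle inhibitor p21, differed by -0.05 (SE 0.42) and Mdm2, which degrades p53, by 0.05 (SE 0.08). The median of 27 proliferation genes was 0.04. Pdgfra, the growth factor receptor of oligodendrocyte precursors, cells that are sensitive to radiation, differed by -0.02 (SE 0.15), and the median of 18 genes of brain endothelium was -0.04.

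The lower values of glial genes came mainly from batch A. Of 21 genes of mature oligodendrocytes 20 were negative (median -0.28), but the median was -0.39 within batch A and -0.08 within batch B. Mal, a myelin protein, stood at 171.6 to 219.3 CPM against 190.2 CPM in untreated replicate 1 of batch B and 285.2 and 284.1 CPM in untreated replicates 2 and 3 of batch A. Gfap, the intermediate filament of astrocytes, stood at 320.2 to 607.7 CPM after transplant against 607.1, 616.2 and 1168 CPM, a log2 fold change of -0.65 (SE 0.21), -0.93 within batch A and -0.09 within batch B. Both lists had 0 calls by edgeR and DESeq2, with 5 oligodendrocyte genes and 2 astrocyte genes at an unadjusted p under 0.05. All of these were lower, as were 1.68% of all genes tested at that p.

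Transcripts that mark brain regions varied between libraries, in part along with the batches. For Gabra6, a receptor subunit of cerebellar granule neurons, the 7 libraries of batch A held 0.05758 to 70.7 CPM and the 5 of batch B held 202.9 to 373.7 CPM. The 19 granule neuron genes together, which mark the labelled tissue, held 597 to 1785 CPM in batch A and 4081 to 6219 CPM in batch B. Slc6a5, which takes up glycine in inhibitory neurons of the brainstem and deep nuclei, varied from 42.5 to 871.7 CPM within batch A. Ttr, the transthyretin of choroid plexus, stood at 2571 to 4174 CPM in edited replicate 5 and mock replicates 1, 3 and 4. It stood at 2.463 to 13.26 CPM in the other 5 transplanted libraries and at 565.9, 268.4 and 2.649 CPM in the untreated ones. Library totals ran from 21572184 to 38760543 counts.

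Npy4r, a receptor of the neuropeptide Y family, lay below the untreated libraries in both batches, at 0.08591 to 0.8017 CPM against 1.367 and 3.656 CPM in batch A and at 0 CPM in all 4 transplanted libraries of batch B against 0.1759 CPM. Its log2 fold change was -2.90 (SE 0.60, edgeR adjusted p = 0.285), and -3.50 to -2.56 when a library was left out. Htr5b, Ano2 and Trh, lower by more, were high in untreated replicates 2 and 3 alone. Htr5b, a serotonin receptor of the inferior olive, stood at 0.4692, 11.98 and 36.04 CPM in untreated replicates 1 to 3 and at 0.08278 to 0.8979 CPM in the transplanted libraries. Ano2, a calcium-gated chloride channel of the same neurons, stood at 0.3519, 10.69 and 27.06 CPM against 0.1242 to 0.6945 CPM. In both, untreated replicate 1 lay inside the transplanted range. Ano2 had a log2 fold change of -4.78 (SE 0.90, edgeR adjusted p = 0.285), -5.84 within batch A and 0.14 within batch B. For Htr5b the values were -4.40 (SE 0.84, edgeR adjusted p = 0.325), -5.32 and -0.44. Trh, a neuropeptide precursor, and Crh, a peptide of olivary neurons, had the same order of libraries. The list of cholinergic, monoamine and olivary neurons had a median of -0.13, -0.37 within batch A and 0.72 within batch B. Prl, a pituitary hormone, stood at 153.5 CPM in untreated replicate 3 and at most 1.588 CPM in the transplanted libraries.

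**Figure D3:**
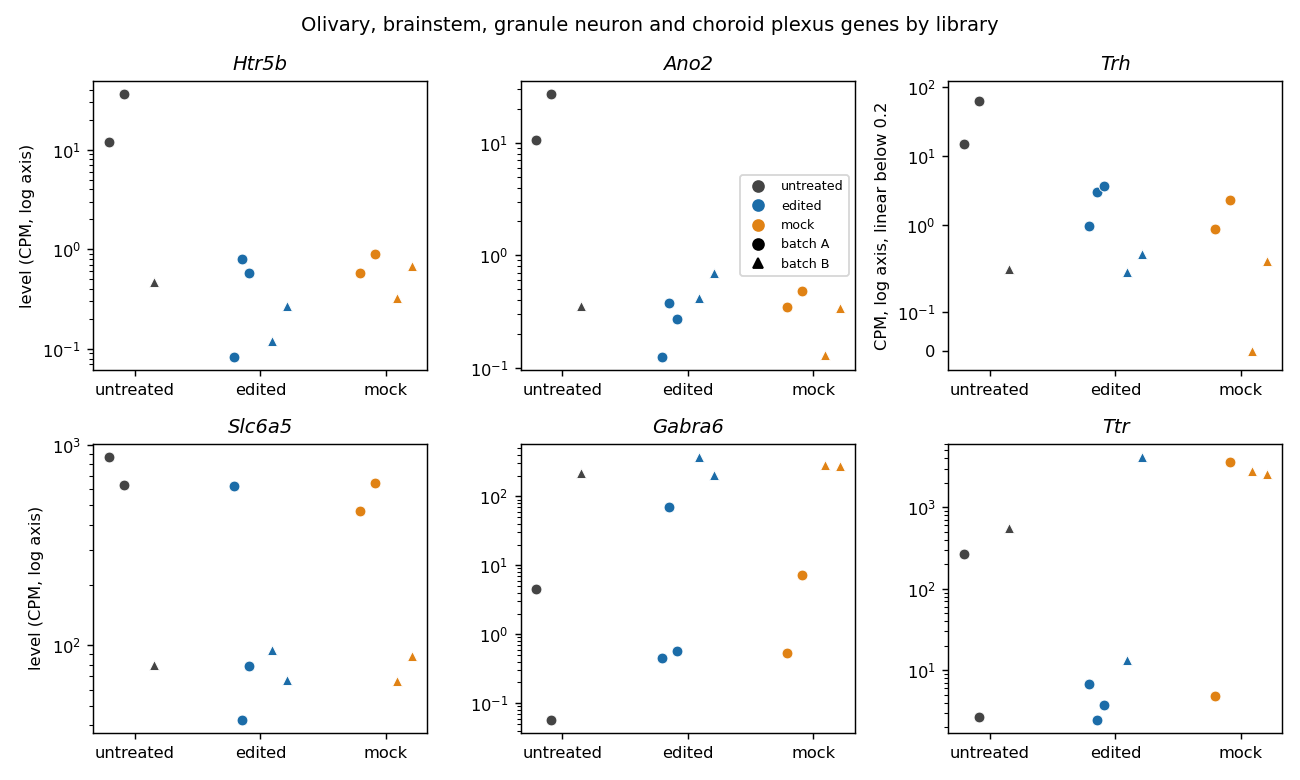
Level of 6 genes of brain regions in each of the 12 libraries (CPM, log axis; for Trh the axis is linear below 0.2), with circles for batch A and triangles for batch B. Htr5b, Ano2 and Trh are high in untreated replicates 2 and 3 of batch A alone, Gabra6 follows the batch, and Ttr is at 2571 CPM or more in 4 transplanted libraries.

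Other neuronal and barrier lists shifted with single libraries. The 19 choroid plexus genes were all positive, with a median of 1.68 and 0 calls by edgeR and DESeq2. That median was -0.08 without mock replicate 3 and -1.40 without the 4 libraries rich in Ttr. The granule neuron median of 0.38 was 0.09 without edited replicate 3, and the Purkinje cell median of 0.37 was -0.19 without it. Brainstem and deep nuclei neurons had a median of -0.47, and 0.02 within batch B. The median of meningeal and perivascular fibroblasts was 0.41 over 18 genes, 0.10 with edited transplants alone and 0.56 with mock transplants alone.

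Without the 4 libraries rich in Ttr, a fit added after the data were seen, 7 genes were called higher by edgeR, all of the satellite-like family, and 0 lower. In that fit the log2 fold change was 0.88 for Mrc1, 1.23 for Lyz2, 1.99 for Ms4a7, -0.87 for Csf1r and -1.04 for Siglech, none called (edgeR adjusted p of 0.434 to 0.708). With a covariate for brain region these genes stood at 0.78, 1.27, 2.09, -0.85 and -1.06, and with one for choroid plexus at 0.87, 1.25, 1.99, -0.83 and -1.01, again without a call. Stab1, a scavenger receptor, ranged from 0.39 to 1.14 and Ifi207, an interferon-inducible gene, from 0.73 to 1.86 over the alternatives.

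**Figure D4:**
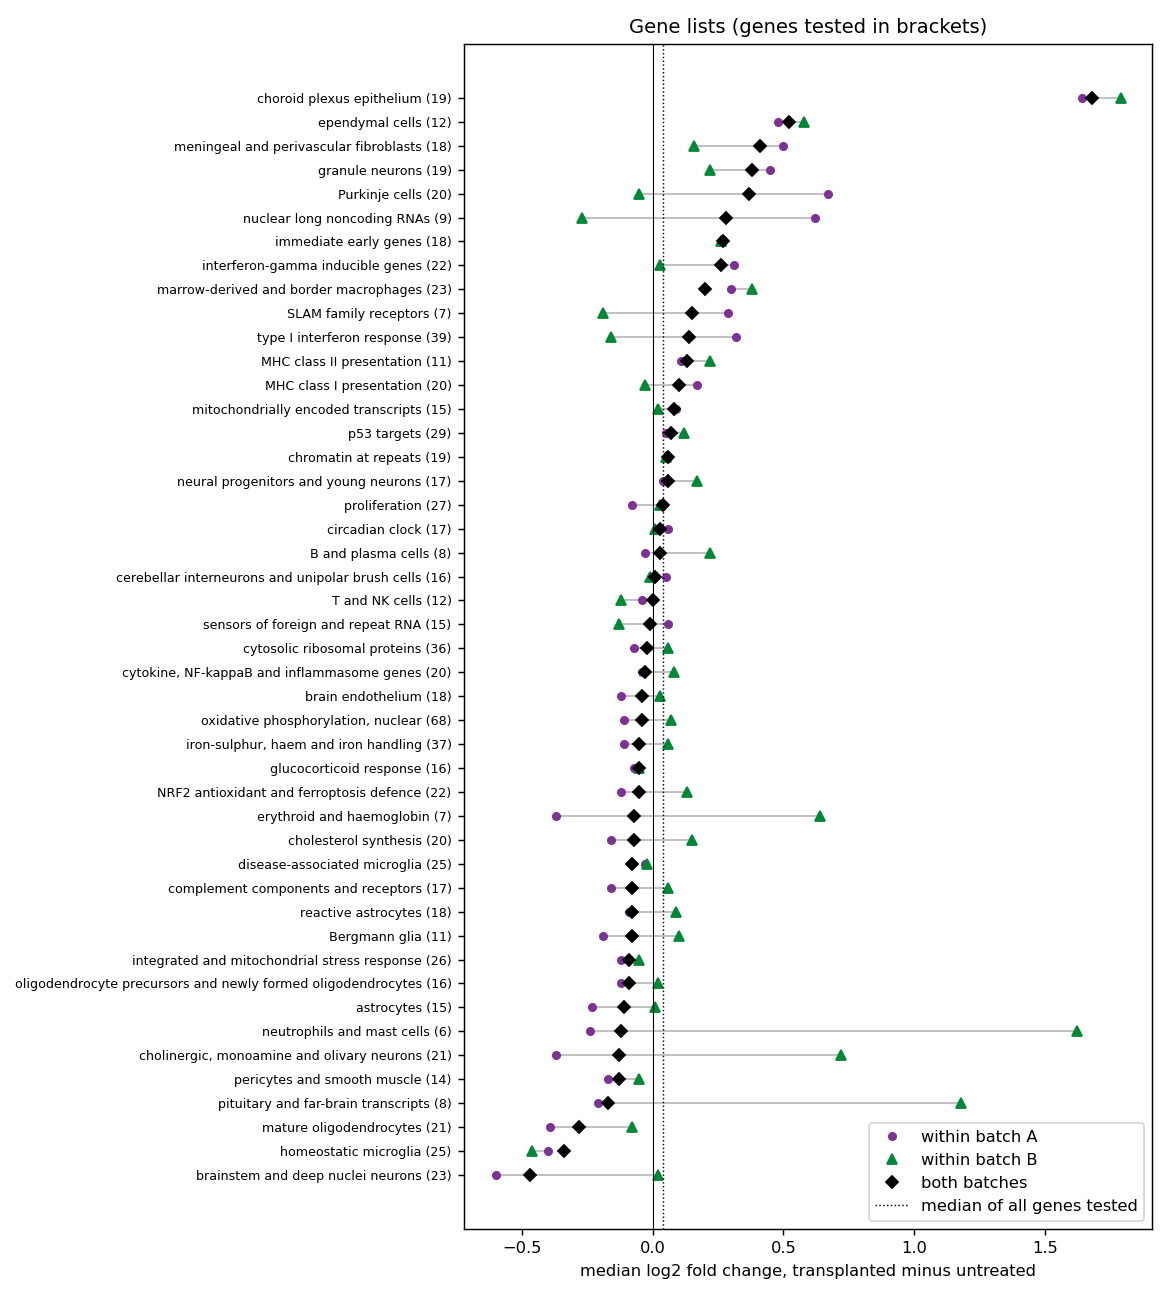
Median log2 fold change (transplanted minus untreated) of each gene list in the fit of both batches (diamonds), within batch A (circles) and within batch B (triangles); the dotted line is the median of all genes tested, 0.04. Homeostatic microglia lie at -0.34 with batch medians of -0.40 and -0.46, while olivary, pituitary, neutrophil and nuclear RNA lists change sign between batches.

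Of the lists of pathways affected in Friedreich ataxia, 4 had medians close to that of all genes. The medians were -0.04 for 68 nuclear genes of oxidative phosphorylation, 0.08 for 15 mitochondrially encoded transcripts, -0.05 for 37 genes of iron-sulphur, haem and iron handling and -0.05 for 22 antioxidant genes of the NRF2 pathway. Each list had 0 calls by edgeR and DESeq2, and at an unadjusted p under 0.05 the 4 lists together held 1 gene, Atp5l. Atf5, a factor of the mitochondrial stress response, was below untreated in both batches, at 22.69 to 38.22 CPM against 39.67, 41.51 and 41.66 CPM, a log2 fold change of -0.40 (SE 0.12, edgeR adjusted p = 0.948). Clock genes Per2 and Per3 differed by 0.47 (SE 0.16) and 0.50 (SE 0.19), and by 0.08 and -0.08 within batch B.

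Edited and mock transplants were fitted apart to see whether they could be pooled. Between them edgeR called 0 of 24196 genes (0%, smallest adjusted p = 0.895), with 801 genes at an unadjusted p under 0.05. On simulated data the same comparison recovered 64% of 2-fold and 92% of 4-fold changes, with 11 false calls. Smaller differences could thus be missed. Against untreated, edited transplants gave 7 genes higher and mock transplants 9, with 0 lower in both, and these comparisons share the same 3 untreated libraries. Ms4a7 differed from untreated by 2.19 (SE 0.39) in edited and 1.63 (SE 0.40) in mock transplants, Csf1r by -0.87 (SE 0.16) and -0.73 (SE 0.17), and Gm10801 by 3.81 (SE 0.22) and 3.77 (SE 0.23). H2-Aa differed by 0.65 (SE 0.35) and 1.68 (SE 0.37). The interaction of transplant and batch called 0 genes (0%, smallest adjusted p = 0.817), with 1199 at an unadjusted p under 0.05, and its simulation recovered 7% of 2-fold and 54% of 4-fold changes.

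**Figure D5:**
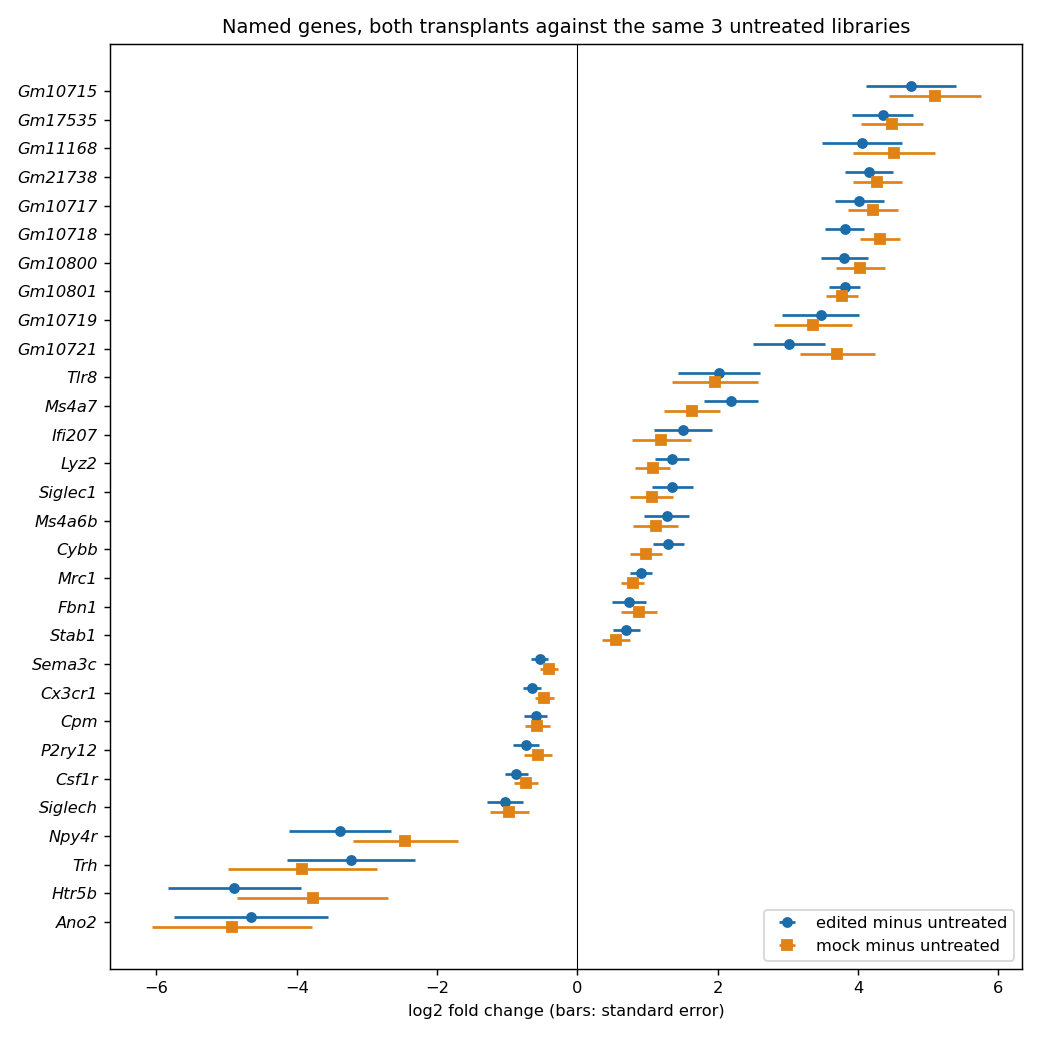
Log2 fold change (bars are standard errors) of the 30 leading genes in edited (circles) and mock (squares) transplants, each against the same 3 untreated libraries. All 30 have the same sign in both, which the shared controls favour.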

How the data were processed

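Counts of reads per gene were used as deposited: whole numbers, not normalized, in 1 table with a column per library. Per the labels' protocols, ribosomal RNA was depleted and stranded paired-end libraries were made from frozen cerebellum. Per the submitters' processing notes, reads were aligned with STAR and the build was GRCm39. In the sources used here, the counting tool and its handling of strand and of reads with several matches are not given. Symbols came from GENCODE M21 (GRCm38) by identifier, with 99.4% of 55488 matched, so no coordinates are given.

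The 9 transplanted and 3 untreated YG8JR libraries were fitted with edgeR 4.0.16 (R 4.3.3; TMM factors, filterByExpr with a minimum count of 10 and a minimum total of 15, robust quasi-likelihood test, batch as covariate). Adjusted p-values are Benjamini-Hochberg values over 24196 genes. The biological coefficient of variation was 0.283. Whether each library is its own animal is not in the labels, and p-values cover the spread between libraries only. On simulated data the fit recovered 63% of 2-fold and 91% of 4-fold changes among 200, with 2 false calls. No 2 libraries of a group agreed within sampling noise (smallest chi-square 21.7 per gene). Replicate numbers were not treated as pairs in the main fit.

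The 47 gene lists and the members were chosen with earlier results of these data known. Named genes were called genes, then the 10 with the smallest p per direction and a mean of at least 1 CPM where under 5 named genes were called, and up to 3 per list by p. Others were chosen after their values were seen. A few genes are left unreported here. Alternatives were RLE scaling, other filters, DESeq2 1.42.0, limma 3.58.1 voom weights, other covariates, single batches and leaving out each library.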

Additional observations from a re-analysis of the deposited data

Results flagged for a closer look

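Among 162 named genes, 10 (6.17%) had 1 transplanted library far from the others of its group. That share is close to the 1 in 20 that chance gives, while 5 of the 10 genes were in edited replicate 1. The cause was not tested, so the values are listed without further reading. In mock replicate 4, Iigp1, an interferon-inducible GTPase, stood at 10.83 CPM, with the next library at 5.337 CPM. In mock replicate 3, Thy1, a surface protein of neurons and T cells, stood at 530.8 CPM, with the next at 420.4 CPM. In mock replicate 2, S100a9, of neutrophils, stood at 2.732 CPM against 0.6559 CPM in the next. Cd3e, of T cells, was at 1.287 CPM in edited replicate 2, and the next library was at 0.6175 CPM. Edited replicate 1 stood apart in 5 genes. Of the 12 libraries it had the smallest total (21572184 counts) and the lowest voom sample weight (0.435). It was high in mt-Cytb (5908 CPM, next 3940 CPM) and Atp5l (27.32 CPM, next 20.64 CPM), and low in Barhl1 (1.49 CPM, next 5.114 CPM), Nr4a2 (4.843 CPM, next 8.362 CPM) and Tmem173 (1.283 CPM, next 1.874 CPM). Chac1, a stress response gene, was low in edited replicate 4 at 7.2 CPM, and the next library was at 8.877 CPM.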

How the results depend on the processing

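The count of 10 higher genes lay between 6 and 10 when a library was left out and was 20 with DESeq2 and 2 within batch B. The count of 0 lower genes lay between 0 and 3 when a library was left out. It was 9 with DESeq2, 4 with voom sample weights, 4 within batch A, 3 with no low-count filter, 2 with all 15 libraries, 1 with no batch term and 1 with the Y-linked covariate. With the replicate number as a block, 8 genes were higher, 1 lower (Ano2, -4.79, adjusted p = 0.0481) and 1 differed between edited and mock. Of 10 same-numbered pairs 5 correlated above 0.1 (-0.7 to 0.826). Those were the 5 pairs that share a batch. Batch was not removed before this check, so it cannot tell whether the numbers pair the samples. Edited against mock gave 0 to 1 genes when a library was left out, 1 without mock replicate 1. The interaction with batch gave 0 in every fit run, and without untreated replicate 1 it could not be fitted. Of the 30 leading genes 29 kept their sign in every alternative, the exception being Ano2. Their choice by p in the same libraries favours this. Of 47 list medians 8 kept their sign. The causes of these shifts were not tested. A lone untreated library in batch B, assumed to vary like the others, limits every within-batch value there.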

Other observations

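A few further genes, picked from those that lay apart from untreated in both batches (0.756% of genes tested above, 0.492% below) after their values were seen, are given as examples and were not called by edgeR. On the higher side were Cxcr4, the chemokine receptor that holds stem cells in marrow (log2 fold change 0.67), Vcam1, the adhesion molecule of activated endothelium (0.54, at 29.3 to 56.32 CPM against 30.26, 28.09 and 23.75 CPM) and Aoah, a lipase of phagocytes that inactivates endotoxin (1.01). On the lower side were Nckap1l, an actin regulator of blood cells (-0.52), Pik3cd, the leukocyte PI3 kinase (-0.33), Lag3, an immune checkpoint receptor (-0.75), and Ccl9, a chemokine of myeloid cells (-0.95).

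Transcripts linked to sex differed between libraries. Y-linked transcripts summed to 1.61 CPM (50 counts) in mock replicate 1, 0.982 CPM (35 counts) in mock replicate 4 and 0.0576 CPM (2 counts) in untreated replicate 3, with Xist, expressed from the inactive X chromosome, at 797.1, 611.3 and 411.5 CPM. The other 9 libraries held 194.4 to 248.9 CPM of Y-linked transcripts. Among those, Xist stood at 0.6873 to 3.684 CPM in the 7 transplanted libraries and at 0.3226 and 0.0268 CPM in the 2 untreated ones. The untreated values rest on 11 and 1 counts, and the difference was noticed after the values were seen. The labels give neither the sex of donors nor that of recipients.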
